A study of Mus musculus with 18 samples.

Results

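Endothelial cells line the vessels and chambers of the heart, and their response to a hairpin against Jun was read here from wells that carried endothelial RNA. Of 7482 wells labelled with a hairpin on 6 nanowell chips, 7382 held at least 500 genes, and 1643 of these were kept as endothelial-marker wells. A well was kept where the summed unique molecular identifiers (UMIs, each standing for 1 captured RNA molecule) of Pecam1, Kdr, Egfl7, Esam, Cdh5 and Fabp4 exceeded both the sum of 6 fibroblast markers and the sum of 6 macrophage markers, and made up at least 0.3% of its non-mitochondrial UMIs. The wells were thus chosen by the measured levels of these 18 genes, which are therefore no finding. The wells just inside the threshold carried between 0.30001 and 0.301% of endothelial UMIs and those just outside 0.299%, all of them from the cardiomyocyte (CM) fraction. In 2448 further wells the endothelial sum was also the largest but lay under 0.3%, and 305 of the 1643 wells kept lay under 0.4%.

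The mice carried the label Myh6/Esr1-Tomato and were P28 (postnatal day 28) at collection. Lentivirus with a pLKO.1 hairpin against Jun (shJun) or a non-targeting hairpin (shNT) had been injected into the left ventricular myocardium at P1. Cells were released by perfusion, parted by centrifugation into a CM and a non-cardiomyocyte (NCM) fraction, and dispensed on ICELL8 chips, each of which held wells of 1 shJun and 1 shNT animal. There were 2 animals per hairpin, with 340 and 375 endothelial-marker wells for shJun animals 1 and 2 and 329 and 599 for shNT animals 1 and 2. All 4 animals had received virus, and no readout in these data tells which wells held a transduced cell. Animals with the same number shared chips, the samples themselves are labelled as mixed, and hairpin and animal came from the authors' well reports. UMIs were summed per animal, which gave between 12404460 and 25490123 UMIs per sum. In such sums, fewer cells of a type and less RNA per cell cannot be told apart.

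Jun is a subunit of AP-1, a dimeric transcription factor that Jun, Fos and related leucine zipper proteins form in changing pairs and that binds the sequence TGANTCA. Its members are immediate early genes, which cells switch on within minutes of growth factors, stretch or tissue digestion. In endothelium, AP-1 acts next to the flow-responsive factors Klf2 and Klf4 and is known for its part in vessel growth and in the expression of leukocyte adhesion molecules.

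Endothelial identity was checked with 8 markers that the rule did not use. Cldn5, Tie1, Flt1, Emcn, Tek, Eng, Cd36 and Gpihbp1 together made up 7923 ± 2327 CPM (a gene's UMIs scaled to a common library size; SD, n = 4 animals) in the endothelial-marker wells of the NCM fraction, which was 3.29-fold above fibroblast wells and 4.35-fold above macrophage wells of that fraction chosen in the same way, and higher in 4 of 4 animals against each. Gpihbp1, which carries lipoprotein lipase across capillary walls, was detected in 60.3% of the NCM-fraction wells after thinning each well to 3000 UMIs, against 35.4% of fibroblast and 33.8% of macrophage wells. For Flt1, the VEGF receptor VEGFR1, these shares were 50.8, 30.7 and 25.8%, and without thinning 76.2, 61.7 and 64.9% at median depths of 27697, 19937 and 32223 UMIs per well. Wells of the other classes thus also held endothelial transcripts, and for the sum, Gpihbp1 and Flt1 the endothelial-marker wells stood above that level. The margin differed between markers. Mean levels over fibroblast wells ran from 1.35-fold for Tek to 5.09-fold for Gpihbp1. After thinning, Tek was in 23.4% of the NCM-fraction wells, against 22.3% of fibroblast and 13.1% of macrophage wells. Cd36 and Gpihbp1, at means of 3270 and 2373 CPM, gave the largest parts of the sum.

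The same wells held CM RNA. Among the 532 endothelial-marker wells of the CM fraction, the summed CM markers (Myh6, Tnnt2, Myl2 and 9 others) exceeded the endothelial sum in every well, with medians of 14.5 and 0.422% of UMIs. In the 1111 wells of the NCM fraction this held for 465, and the share differed between animals, being 19.8% and 35.7% in shJun animals 1 and 2 and 83.7% and 24.8% in shNT animals 1 and 2. By this count 997 of the 1643 wells (60.7%) went against an endothelial label. They are called endothelial-marker wells here for that reason, and values are given for all wells, for the NCM fraction or for both, as named.

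**Figure D1:**
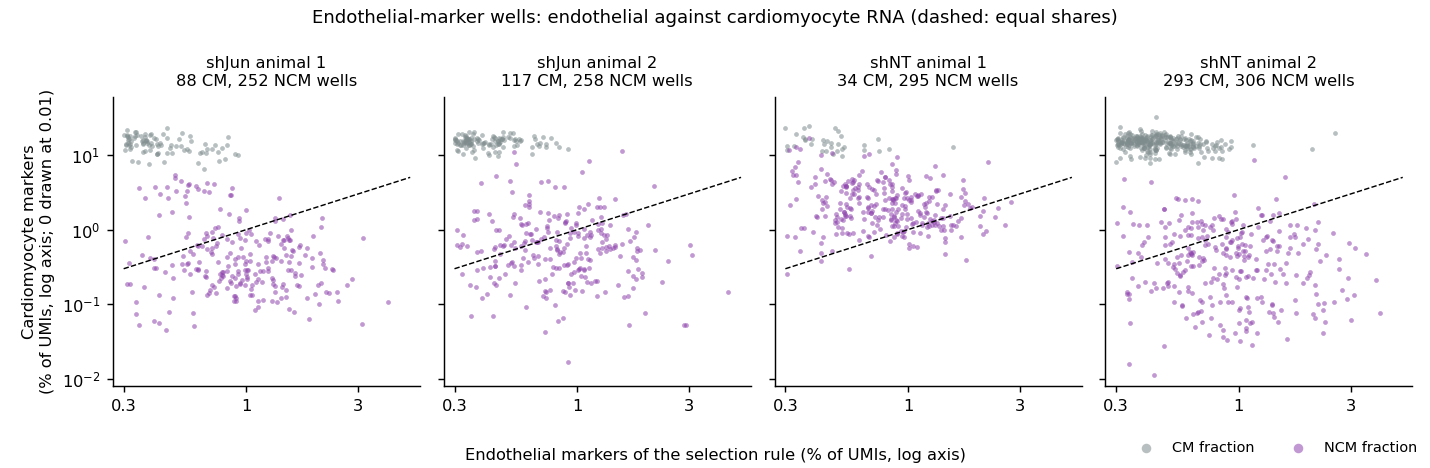
Each point is 1 endothelial-marker well, with the endothelial markers of the rule on the horizontal axis and the cardiomyocyte markers on the vertical axis (both as % of non-mitochondrial UMIs, log axes; the dashed line marks equal shares), by animal and fraction. The 532 CM-fraction wells lie above the line in all 4 animals, and in the NCM fraction shNT animal 1 has 83.7% of its wells above it.

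RNA of further cell types and sex-linked RNA moved with single animals. Erythroid markers, chiefly globins, took 18.5 and 2.91% of the NCM-fraction UMIs of shJun animals 1 and 2 and 7.78 and 19.6% of those of shNT animals 1 and 2, so that the hairpins overlapped. The 6 T cell markers took under 0.004% of UMIs in 3 animals and 0.106% in shJun animal 2. The T lineage genes, a list partly chosen after values had been seen, took 2318 CPM in that animal against 16.7, 19.3 and 59.9 CPM in the others. Liver genes, chosen in the same way, took 5865 CPM of the CM-fraction wells of shNT animal 2 and 171 CPM or less in the other 3. Xist, the RNA of the inactive X chromosome, stood at 223 CPM in shJun animal 1 and at 3.23 CPM or less in the others. Y-linked genes stood at 6.54 CPM in shJun animal 1 and between 217 and 236 CPM in the others. By these genes shJun animal 1 reads as female and the other 3 animals as male, so sex was not balanced between hairpins. The median share of mitochondrial UMIs per NCM-fraction well was 28.4 and 23.6% in the shJun animals and 55.3 and 39.2% in the shNT animals, with no overlap. Mural markers such as Rgs5 took between 0.136 and 0.213% of UMIs. The part of these differences in the results that follow was not tested. Taking the NCM fraction alone lowers liver RNA in shJun animal 2, from 56.4 to 13.3 CPM, and in shNT animal 2, from 2881 to 455 CPM. In shJun animal 1 and shNT animal 1 liver genes stood at 2.21 and 62.9 CPM over all wells and at 2.80 and 67.0 CPM in the NCM fraction. The level of CM RNA is lower in the NCM fraction, but the CM markers differ more between animals there. They took 0.374 and 0.911% of UMIs in the shJun animals and 2.93 and 0.508% in the shNT animals. Over all wells these shares were 4.31, 4.76, 3.71 and 6.82%. The erythroid, T lineage and mitochondrial differences also lie within the NCM fraction.

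**Figure D2:**
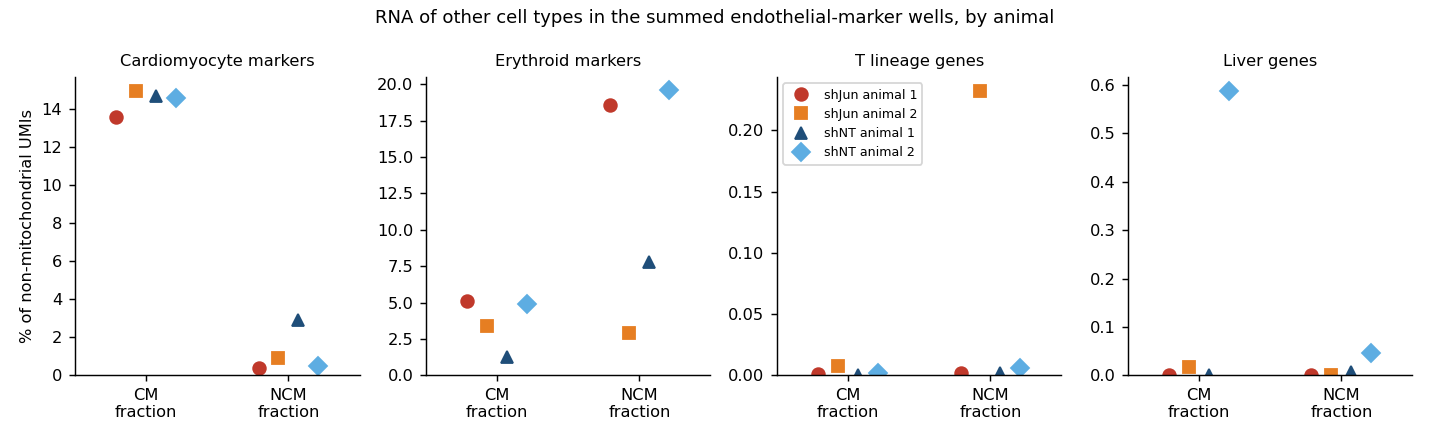
Share of non-mitochondrial UMIs (%) taken by cardiomyocyte markers, erythroid markers, T lineage genes and liver genes in the summed endothelial-marker wells, with 1 point per animal and fraction. T lineage genes are high in shJun animal 2 alone, liver genes in shNT animal 2 alone, and erythroid markers in shJun animal 1 and shNT animal 2 of the NCM fraction.

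Jun, the target of the hairpin, lies on chromosome 4 (GRCm38, 95049034 to 95052222, minus strand). Its RNA was not lower in the shJun animals. Over all endothelial-marker wells its level was 114 and 160 CPM for shJun animals 1 and 2, against 105 and 87.2 CPM for shNT animals 1 and 2, so both shJun animals lay above both shNT animals. These CPM carry the TMM scaling of edgeR, and before it the levels were 107, 176, 111 and 79.3 CPM, with shNT animal 1 above shJun animal 1. The log2 change was 0.51 (SE 0.38; edgeR adjusted p = 0.917), which did not pass the threshold of 0.05. Within the NCM fraction the levels were 145, 192, 109 and 112 CPM in the same order, with a log2 change of 0.61 (SE 0.46; edgeR adjusted p = 0.929). An exact permutation test over animals on the unscaled CPM gave p = 0.667 for all wells and p = 0.33 for the NCM fraction, the smallest two-sided p that 2 against 2 animals allow.

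The size of the Jun difference varied with chip and well choice. On the NCM chips Jun was at 133 and 219 CPM in the shJun animals, before TMM scaling, against 117 and 98.7 CPM in the shNT animals on the same chips. On the 4 CM chips shJun animal 1 had 23.8 and 79.6 CPM against 30.6 and 50.7 CPM for its chip partner, and shJun animal 2 had 96.5 and 38.4 CPM against 63.6 and 47.1 CPM, so that the shJun animal was the higher on 1 CM chip of each pair and the lower on the other. After thinning, Jun was detected in 12.8 and 16.5% of NCM-fraction wells of the shJun animals (29 of 227 and 36 of 218) and in 12.5 and 7.41% of those of the shNT animals (34 of 271 and 20 of 270). Pooled over animals, the share was 12.1% in endothelial-marker wells and 13.6 and 14.6% in fibroblast and macrophage wells. The pooled share of endothelial-marker wells was thus not above that in the other classes, though that of shJun animal 2 was. Without thinning the shares were 27.4, 41.9, 34.9 and 29.1%, and the hairpins overlapped. Where wells with more CM than endothelial markers were left out, the log2 change turned to -0.52 (SE 0.62). That choice took out 281 of the 329 wells of shNT animal 1 and 369 of the 599 of shNT animal 2. In shJun animals 1 and 2 it took out 138 of 340 and 209 of 375 wells. Where endothelial markers had to reach 1% of UMIs the log2 change was 0.03 (SE 0.94) over all wells and 0.01 (SE 0.94) in the NCM fraction.

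The Jun promoter is shown because AP-1 members are known to act on it. RefSeq windows (GRCm38.p6) of 250 bases before to 50 after the start were searched on both strands for the AP-1 motif TGANTCA, which reads the same on both strands, and for the related motif TGACNTCA. The first was in 2425 of 27025 gene windows (8.97%) and the second in 2708 (10.02%). The window of Jun held TGACNTCA once, 45 bases before the start, and no TGANTCA. The 250 bases before the start of Jun are chr4:95052223-95052472 (minus strand, 5′ to 3′), with the match in capitals.
Jun: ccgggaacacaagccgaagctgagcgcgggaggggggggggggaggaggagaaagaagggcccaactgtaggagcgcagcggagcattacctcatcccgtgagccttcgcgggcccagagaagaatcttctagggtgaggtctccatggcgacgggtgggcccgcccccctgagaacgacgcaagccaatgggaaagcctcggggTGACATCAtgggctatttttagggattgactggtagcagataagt
Of the 11 AP-1 genes with a window, Jun and Maff held TGACNTCA and none held TGANTCA. A match is a description of the letters and not of a bound site.

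None of the other AP-1 genes passed the threshold either. Across all 15289 genes tested over all wells, 5.2% had an unadjusted p under 0.05 and 32.4% had animals that did not overlap between hairpins. Of 11 AP-1 genes tested there, 0 had an unadjusted p under 0.05 (edgeR), with a median log2 change of -0.37 against 0.01 over all genes. In NCM-fraction sums 12 were tested, with 0 under 0.05 and a median of -0.38, where 5.18% of all 14390 genes lay under 0.05 and 32% had animals that did not overlap. Junb, a Jun paralog, lay at 49.6 and 22.8 CPM in the shJun animals against 29.7 and 8.87 CPM in the shNT animals of the NCM fraction, and the hairpins overlapped. Jund, which is less inducible, lay between 52.4 and 63.8 CPM in all 4 animals. Fos stood at 12.7, 20.9, 198 and 17.9 CPM in shJun animals 1 and 2 and shNT animals 1 and 2, and 81.7% of its UMIs in shNT animal 1 came from 1 well. Maff, a small Maf protein that lacks a transactivation domain, was at 20.2 and 9.80 CPM against 5.66 and 6.77 CPM, without overlap, at a log2 change of 1.27 (SE 1.07; edgeR adjusted p = 0.938) in the NCM fraction. On thinned sums of the NCM fraction 6 AP-1 genes could be tested, of which Fos and Mafk were lower at an unadjusted p under 0.05, where 4.56% of all 9103 genes lay under it, 2.46% of all being lower.

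**Figure D3:**
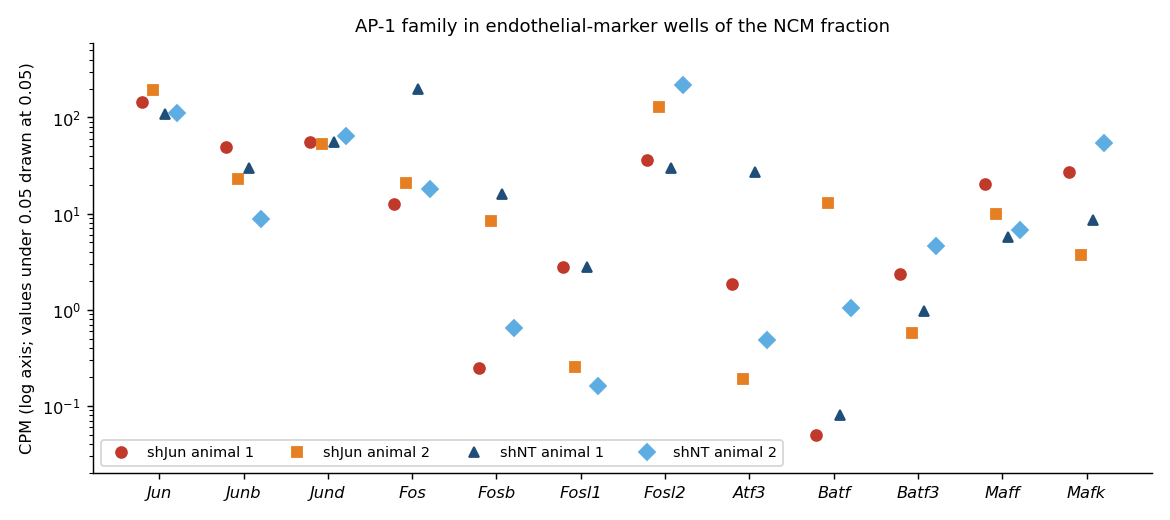
Level of 12 AP-1 genes in the NCM-fraction endothelial-marker wells (CPM, log axis, values under 0.05 drawn at 0.05), with 1 point per animal and no error bars. Both shJun points lie above both shNT points for Jun and Maff, and the shNT animal 1 point for Fos, at 198 CPM, stands apart.

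The immediate early genes outside AP-1 and the flow-responsive factors gave no gene past the threshold. Of 19 immediate early genes tested over all wells, 1 had an unadjusted p under 0.05, and the list's median log2 change was -0.19. That gene was Socs3, the feedback inhibitor of cytokine receptors, at 0.49 and 0.19 CPM in the shJun animals against 3.88 and 3.71 CPM in the shNT animals of the NCM fraction, levels of few UMIs. Egr1, a zinc finger factor switched on with AP-1, ranged from 7.66 CPM in shNT animal 2 to 442 CPM in shNT animal 1, and both shJun animals lay between, at 164 and 124 CPM. Of 15 flow-responsive, SoxF and ETS factors, 0 had an unadjusted p under 0.05, with a median of -0.10. Klf2, the factor induced by laminar shear, stood at 303, 326, 198 and 406 CPM in the order shJun animals 1 and 2, shNT animals 1 and 2 of the NCM fraction, and its log2 change over all wells was 0.15 (SE 0.34). The shNT animals lay on either side of both shJun animals. Klf4, its paralog, gave -0.39 (SE 0.48), Erg, an ETS factor of endothelial identity, -0.01 (SE 0.49), and Tcf4, the partner of class II helix-loop-helix proteins, 0.23 (SE 0.28).

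Over all genes, edgeR called 0 of 15289 at an adjusted p under 0.05, with a smallest adjusted p of 0.898. An unadjusted p under 0.05 was reached by 795 genes, 396 higher (2.59%) and 399 lower (2.61%) in shJun. Of the 28289 genes with any UMI, DESeq2 called 212 (0.749%; 123 higher, 89 lower). Without a filter on low counts edgeR called 335 of these genes (1.18%), in 231 of which 1 animal held over 90% of the UMIs. For the NCM fraction edgeR called 0 of 14390 genes, 745 reached an unadjusted p under 0.05, 357 of them higher (2.48%) and 388 lower (2.7%), and DESeq2 called 267 of the 27054 genes with any UMI (0.987%). By default DESeq2 leaves genes of low count out of its adjustment. Its shares are therefore over more genes than it adjusted and are not comparable with those of edgeR. UMIs of a gene often came from few wells: among the 6938 genes at a mean of 20 CPM or more, the well richest in a gene gave a median of 17.3 to 22.3% of that gene's UMIs per animal, and 24.5% of the genes had over 50% in 1 well of some animal. With 2 animals per hairpin, the p-values rest on the spread between these animals only. For each gene edgeR draws the variance estimate towards that of all genes. A gene's p-value is therefore not a measure of its own spread alone, and this holds for each edgeR fit given here.

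The 20 genes named by rule did not pass the threshold either, each with an adjusted p of 0.898. They are the 10 in each direction with the smallest unadjusted p among 2274 genes at a mean of 20 CPM or more whose animals did not overlap, so that their separation is what chose them. Among those higher in shJun, Trib1, a pseudokinase that brings substrates to the COP1 ubiquitin ligase, gave 140 and 79.0 CPM for shJun animals 1 and 2 against 14.8 and 14.3 CPM for shNT animals 1 and 2 (log2 change 2.91, SE 0.52). It had 76.6% of its UMIs in shJun animal 1 in 1 well, and its change on thinned sums was 3.24. In the NCM fraction, thinning lowered its level in shJun animal 1 from 194 to 62.8 CPM. In shJun animal 2 thinning raised it from 101 to 442 CPM. The shNT animals stood at 11.9 and 24.5 CPM after thinning. Over all wells Brpf1, a scaffold of histone acetyltransferase complexes, stood at 135, 86.3, 25.1 and 22.1 CPM in the same order, with a log2 change of 2.23 and of 1.67 after thinning. Lyst, the lysosomal trafficking regulator mutated in Chediak-Higashi syndrome, gave 69.4, 74.1, 10.6 and 15.8 CPM, with changes of 2.44 and 1.89. For these 3 genes the change in summed UMIs after thinning stayed within 1 log2 unit, but few wells carried it. In the thinned NCM-fraction wells Trib1 was detected in 10, 15, 7 and 7 wells in the same order, Lyst in 9, 9, 4 and 4, and Brpf1 in 11, 12, 14 and 6, where the hairpins overlapped. By number of wells with a UMI, Brpf1 gave 0.40 (SE 0.50). The change after thinning was smaller by more than 1 log2 unit for Rnf215 (2.40 and 0.33) and for Dnajc9, a histone chaperone (2.31 and 0.30), in which 83.8% and 85.6% of the UMIs of shJun animal 1 lay in 1 well.

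Selenon, a selenoprotein of the endoplasmic reticulum, gave a log2 change of 2.27, Trmt6, a subunit of a tRNA methyltransferase, 3.03, Paqr4 2.54 and Cactin, a splicing factor, 2.94. After thinning these were 1.33, 1.66, 1.23 and 1.94. In thinned NCM-fraction wells, in the order shJun animals 1 and 2, shNT animals 1 and 2, Trmt6 was in 6, 3, 6 and 6. Paqr4 was in 8, 7, 9 and 8 wells, Selenon in 18, 11, 8 and 7, and Cactin in 5, 6, 4 and 3. In shJun animal 2, 1 well held 84.8% of the Trmt6 UMIs, 70.0% of those of Selenon and 83.4% of those of Paqr4. The Paqr4 share in shJun animal 1 was also 83.4%. Pde1b, a calmodulin-dependent phosphodiesterase, had the highest fitted change, 7.18, but 98.8% of its UMIs in shJun animal 1 lay in 1 well and it was too rare to be tested after thinning.

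Among the genes lower in shJun, Pdlim3, which encodes a muscle protein of the Z-disc, was at 14.0 and 6.68 CPM in the shJun animals against 65.1 and 46.5 CPM in the shNT animals (log2 change -2.43, SE 0.64; -2.69 after thinning). It was detected in 1 and 1 thinned NCM-fraction wells of the shJun animals and in 13 and 10 of the shNT animals. CM markers took 0.374 and 0.911% of the NCM-fraction UMIs of the shJun animals and 2.93 and 0.508% of those of the shNT animals. Their part in the Pdlim3 difference was not tested. Pdlim3 was also the 1 gene with TGACNTCA among the 7 lower genes that had a promoter window, as Pde1b was among the 7 higher genes, and none of these 14 windows held TGANTCA. The 250 bases before the start of Pdlim3, chr8:45885237-45885486 (plus strand, GRCm38.p6, RefSeq), are shown with the match in capitals, 48 bases before the start.
Pdlim3: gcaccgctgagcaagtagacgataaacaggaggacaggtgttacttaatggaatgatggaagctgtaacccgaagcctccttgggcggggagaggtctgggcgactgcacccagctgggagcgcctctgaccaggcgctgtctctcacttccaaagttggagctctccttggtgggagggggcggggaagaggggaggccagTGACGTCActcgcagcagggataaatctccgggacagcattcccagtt

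C3, the central complement component, lay at 43.5 and 48.7 CPM in the shJun animals against 132 and 160 CPM in the shNT animals, with a log2 change of -1.67 over all wells, -1.18 in the NCM fraction and -1.02 after thinning. On thinned sums of the NCM fraction it was -0.46 (SE 0.44), and by number of wells with a UMI -0.34 (SE 0.28), with 30 and 28 wells of the shJun animals (13.2 and 12.8%) and 49 and 35 of the shNT animals (18.1 and 13.0%). Secisbp2l, which binds selenocysteine insertion elements, stood at 53.1, 28.4, 143 and 141 CPM, with -1.80 over all wells and -1.45 after thinning. Zfp24, a zinc finger repressor, stood at 16.2, 17.2, 141 and 44.2 CPM, with -2.47 and -2.02. Gpcpd1, a glycerophosphocholine phosphodiesterase, gave -1.83 and -1.23. Smaller changes after thinning were seen for Mindy1, a deubiquitinase (-2.98 and -0.94), and Gclc, the catalytic subunit of the enzyme that limits glutathione synthesis (-2.51 and -0.58), in which 1 well held 94.9% of the UMIs of shNT animal 1. Tfcp2, a transcription factor, gave -3.33 and -1.44, and Rnf128, a ubiquitin ligase, -1.92 and -1.38. Dnm3, a dynamin, gave -2.15 over all wells, -1.08 on thinned sums of the NCM fraction and -0.49 by number of wells with a UMI, and 1 well held 74.5% of its UMIs in shNT animal 1. In NCM-fraction sums all 20 genes kept their direction, but C3 and Rnf128 no longer had an unadjusted p under 0.05. Only 8 of the 20 were in enough wells for the test by wells with a UMI, and of these Selenon (1.12), Gpcpd1 (-0.98), Secisbp2l (-0.99) and Zfp24 (-1.29) had an unadjusted p under 0.05 there.

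**Figure D4:**
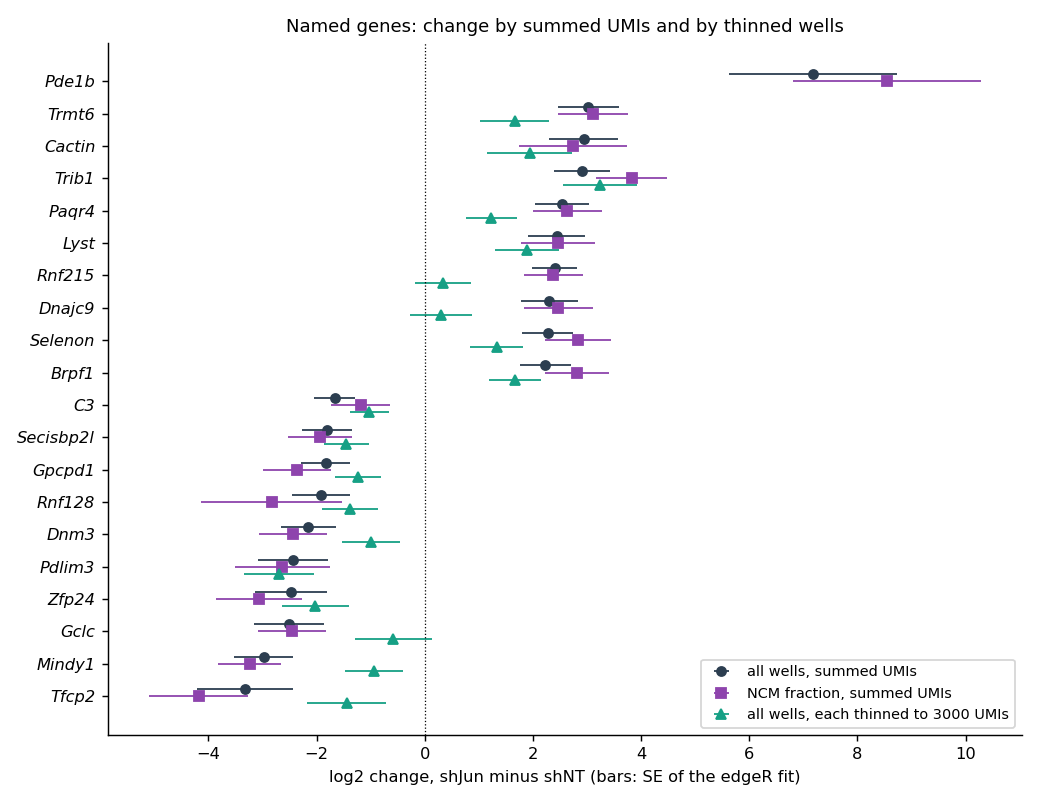
Log2 change, shJun minus shNT, of the 20 genes named by rule, from summed UMIs of all endothelial-marker wells, of the NCM fraction, and of all wells thinned to 3000 UMIs (bars: SE of the edgeR fit, 2 animals per hairpin). Rnf215, Dnajc9 and Gclc shrink towards 0 after thinning, while Trib1 and Pdlim3 do not.

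Genes of endothelial signalling were read by role, beginning with VEGF and angiopoietin signalling, which steers vessel growth. For this and the lists that follow, 5.2% of all genes tested over all wells had an unadjusted p under 0.05. Animals did not overlap between hairpins for 32.4% of all genes. Within the NCM fraction these shares were 5.18 and 32%. Of 19 genes tested, 1 had an unadjusted p under 0.05, and the median log2 change was 0.05. That gene was Robo4, an endothelial receptor that steadies the vessel barrier, at 374 and 341 CPM in the shJun animals against 123 and 121 CPM in the shNT animals of the NCM fraction. Both shJun animals lay above both shNT animals, and the log2 change was 1.33 over all wells (SE 0.32; edgeR adjusted p = 0.898) and 1.55 in the NCM fraction. The well richest in Robo4 held 46.1% of the UMIs of shJun animal 1, and the change was 0.60 on thinned sums and 0.05 by the number of wells with a UMI. The VEGF co-receptor Nrp1 gave 0.04 (SE 0.28), the angiopoietin receptor Tek 0.05 (SE 0.33), its partner Tie1 -0.29 (SE 0.37) and the phosphatase Ptprb, which acts on Tek, -0.06 (SE 0.29). NCM-fraction sums gave -0.04, 0.04, -0.52 and -0.13 for the same 4 genes. The apelin receptor Aplnr stood at 292 and 232 CPM against 167 and 194 CPM without overlap, at a change of 0.60 (SE 0.35).

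Of 11 genes of Notch signalling, which sets arterial fate and tip cell choice, Hey2, a target of the pathway, had an unadjusted p under 0.05. It was at 0.24 and 0.45 CPM in the shJun animals against 9.87 and 2.66 CPM in the shNT animals of the NCM fraction, with at most 4 thinned wells per animal. The ligand Dll4 gave 0.31 (SE 0.61) and the receptor Notch4 0.36 (SE 0.46), and the list's median was -0.01.

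BMP and TGF-beta signalling keeps endothelium quiescent and can drive it towards mesenchyme. It held 3 of 17 genes with an unadjusted p under 0.05, 1 higher and 2 lower, where 5.2% of all genes lay under it. Eng, the co-receptor endoglin, reached 84.8 and 145 CPM in NCM-fraction wells of the shJun animals, against 153 and 500 CPM for the shNT animals. Before TMM scaling shJun animal 2 (165 CPM) lay above shNT animal 1 (163 CPM), so whether the groups overlap depends on the scaling. The log2 change was -1.21 over all wells (SE 0.47) and -1.51 in the NCM fraction (SE 0.66), where the unadjusted p was no longer under 0.05. Smad1, which carries BMP signals to the nucleus, stood at 32.5 and 49.6 CPM against 104 and 240 CPM, at a change of -1.53 (SE 0.44) and of -2.07 in the NCM fraction (SE 0.63). On thinned sums of the NCM fraction the changes of Eng and Smad1 were -1.16 and -1.20, both with an unadjusted p under 0.05, and by number of wells with a UMI -0.49 and -0.54, neither under it. Tgfbr1, the type I TGF-beta receptor, was at 117 and 74.4 CPM in the shJun animals against 29.4 and 23.0 CPM in the shNT animals, at a change of 1.64 (SE 0.50) over all wells, 1.87 in the NCM fraction (SE 0.63), and 1.17 on its thinned sums, where the unadjusted p was not under 0.05. The BMP target Id1 gave -0.23 (SE 0.35) and Id3 0.33 (SE 0.53), Acvrl1, the type I receptor that works with endoglin, -0.30 (SE 0.36), and Bmpr2 -0.23 (SE 0.63), with -0.38, 0.15, -0.42 and -0.40 in the NCM fraction. None of the 17 passed the adjusted threshold.

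Capillary lipid transport, by which heart capillaries hand fatty acids to CMs, held 2 of 16 genes with an unadjusted p under 0.05, both lower. Of all genes tested 2.61% were lower at that level. Fabp5, a fatty acid binding protein, lay at 79.4 and 87.9 CPM in the shJun animals against 149 and 187 CPM in the shNT animals of the NCM fraction. Its log2 change was -1.08 over all wells (SE 0.36) and -1.01 in the NCM fraction (SE 0.48, the unadjusted p not under 0.05). On the thinned sums of that fraction the change of Fabp5 was -1.18. The groups did not overlap in NCM-fraction sums, which held for 32% of all genes tested there. Slc27a4, a fatty acid transport protein, stood at 15.5 and 8.78 CPM against 37.6 and 57.2 CPM, at a change of -1.80 (SE 0.61) over all wells and -1.96 (SE 0.81) in the NCM fraction. Lpl, the lipase that Gpihbp1 carries and that CMs also make, stood at 813 and 1130 CPM against 1812 and 2026 CPM, at -0.98 (SE 0.36) in the NCM fraction, with an unadjusted p under 0.05 there, and -0.57 (SE 0.31) over all wells. Cd36, the fatty acid translocase, ranged from 2163 to 5497 CPM, both ends set by shNT animals, and gave -0.32 (SE 0.39). Gpihbp1 gave -0.05 (SE 0.33), and Meox2 and Tcf15, the transcription factor pair of cardiac capillaries, 0.20 (SE 0.44) and -0.29 (SE 0.38).

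**Figure D5:**
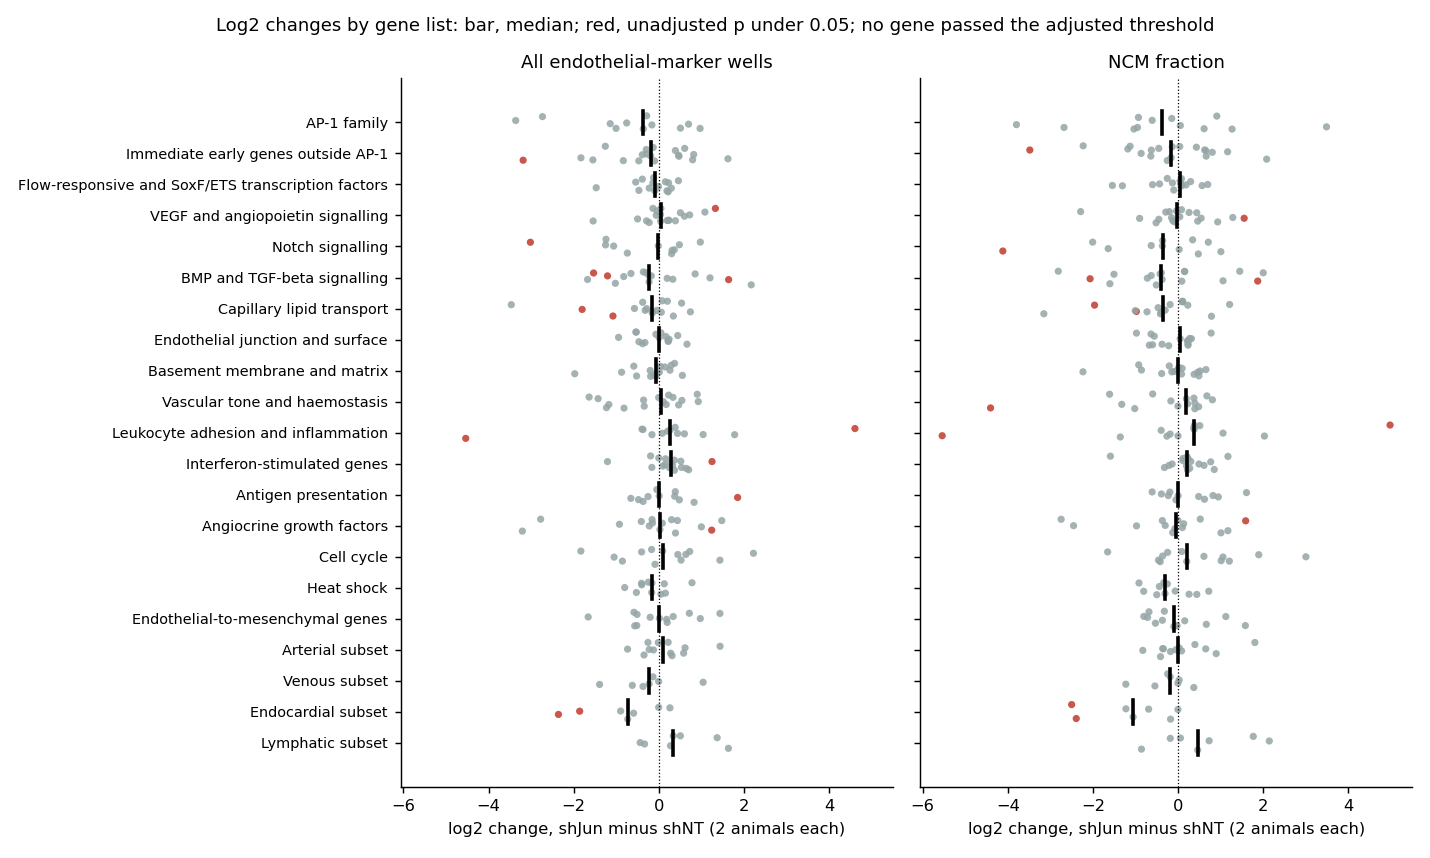
Log2 change, shJun minus shNT, of each gene (points) by gene list, for all endothelial-marker wells and for the NCM fraction, with the list's median as a bar and genes at an unadjusted p under 0.05 in red. Medians of most lists lie near 0, the endocardial list has the lowest median of those shown in both panels, and no gene passed the adjusted threshold.

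Over all wells the structural lists held no gene with an unadjusted p under 0.05. Among 15 junction and surface genes the median log2 change was 0.00, with Cd34 at 0.05 (SE 0.30), Jam2 at 0.22 (SE 0.33) and the mucin Emcn at 0.00 (SE 0.42). Among 16 genes of basement membrane and matrix it was -0.06, with the collagen IV chains Col4a1 at -0.12 (SE 0.28) and Col4a2 at -0.07 (SE 0.28) and Sparc at -0.20 (SE 0.29). Among 16 genes of vascular tone and haemostasis it was 0.05. Nos3, the endothelial nitric oxide synthase, was at 19.6 and 13.1 CPM in the shJun animals against 46.9 and 34.8 CPM in the shNT animals of the NCM fraction without overlap, at -1.23 (SE 0.68), and Vwf, the von Willebrand factor, gave -0.01 (SE 0.71). Within the NCM fraction Procr, the protein C receptor, was lower at an unadjusted p under 0.05, at 0.00, 0.51, 3.88 and 8.14 CPM in the order shJun animals 1 and 2, shNT animals 1 and 2, with at most 2 thinned wells per animal. The 13 genes of endothelial-to-mesenchymal change (median 0.01), the 13 cell cycle genes (0.09) and the 11 heat shock genes (-0.17) gave 0 as well, with Zeb1 at -0.57 (SE 0.37), Mki67 at -1.83 (SE 1.04) and Hspa8 at 0.15 (SE 0.34). In these lists the animals of 1 hairpin often spread as widely as the hairpins did.

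Lists of immune contact and secreted factors held 1 gene or 1 in each direction with an unadjusted p under 0.05 over all wells. Of all genes tested 5.2% lay under it. Of 13 genes of leukocyte adhesion and inflammation, Icam1 was higher and Sele lower, both adhesion molecules known to be induced by inflammation. They stood at 8.68, 2.16, 0.24 and 0.08 CPM and at 0.00, 0.06, 1.13 and 3.39 CPM in the order shJun animals 1 and 2, shNT animals 1 and 2 of the NCM fraction, with at most 1 thinned well per animal. Vcam1, induced in the same way, lay between 34.9 and 64.2 CPM and gave -0.37 (SE 0.63). Of 17 interferon-stimulated genes, Ifit2 was higher, at 137 and 132 CPM against 40.1 and 79.6 CPM, with a change of 1.25 (SE 0.41) over all wells, 1.17 (SE 0.57) in the NCM fraction and 0.23 on the thinned sums of that fraction. The list's median was 0.28 over all wells and 0.22 in the NCM fraction. Of 11 antigen presentation genes, the peptide transporter gene Tap1 was higher, at 55.9 and 51.5 CPM against 14.2 and 21.1 CPM, with a change of 1.85 (SE 0.55) over all wells and 1.60 (SE 0.72) in the NCM fraction, while H2-D1 gave -0.05 (SE 0.28). Neither Ifit2 nor Tap1 had an unadjusted p under 0.05 within the NCM fraction. Of 15 angiocrine growth factor genes, Igfbp3, which binds insulin-like growth factors, was higher, at 183 and 117 CPM against 53.7 and 46.0 CPM, with 1.24 (SE 0.41) over all wells and 0.45 on thinned sums of the NCM fraction. Changes of this size in summed UMIs that shrank on thinned wells were shared by Robo4, Ifit2 and Igfbp3.

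Vessel subset genes were read next. Of 12 arterial, 7 venous and 7 lymphatic genes, 0 had an unadjusted p under 0.05, with medians of 0.10, -0.23 and 0.34. Of 7 endocardial genes tested, 2 were lower at an unadjusted p under 0.05, where 2.61% of all genes were. The median of the endocardial list was -0.73 over all wells, -1.06 in the NCM fraction and -0.27 on thinned sums of that fraction. Cdh11, a mesenchymal cadherin that fibroblasts also make, lay at 7.58 and 38.4 CPM in the shJun animals against 110 and 152 CPM in the shNT animals of the NCM fraction (-2.36 over all wells, SE 0.80), with 75.3% of the UMIs of shNT animal 2 in 1 well. Plagl1, an imprinted zinc finger gene, stood at 18.3 and 4.77 CPM against 34.3 and 86.8 CPM (-1.86, SE 0.71). Npr3, the natriuretic peptide clearance receptor and the best known endocardial marker of the list, gave 59.2, 210, 170 and 265 CPM with overlap (-0.59, SE 0.63).

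The share of wells with at least 2 genes of a subset list after thinning to 3000 UMIs overlapped between hairpins for each list. For arterial genes it was 8.06 and 9.37% in the shJun animals and 9.97 and 7.31% in the shNT animals, a difference in means of 0.08 percentage points. For venous genes the shares were 6.13, 13.9, 12.3 and 12.5%, with a difference of -2.37 points, for endocardial genes 3.55, 8.76, 6.98 and 7.13% (-0.90), and for lymphatic genes 3.23, 5.14, 5.65 and 2.67% (0.02). Each exact permutation test over animals gave p = 1.0. NCM-fraction wells alone gave differences of -0.15, -2.15, -0.41 and 0.28 points for the 4 lists. After thinning to 2000 UMIs the lymphatic shares no longer overlapped, at 2.82 and 4.15% (9 and 14 wells) against 2.27 and 1.06% (7 and 6 wells), a difference of 1.82 points (exact permutation p = 0.33). Fibroblast wells of the NCM fraction gave 11.98 to 16.1% for the venous list, 3.93 to 10.3% for the endocardial list and 1.796 to 4.60% for the lymphatic list, so these shares lay at the level of another cell class, and for the arterial list 3.97 to 7.78%. Endothelial-marker wells made up 20.1 and 21.1% of the wells with 500 or more genes in the shJun animals and 18.7 and 27.8% in the shNT animals (20.6 ± 0.66 and 23.3 ± 6.42, SD, n = 2 each; exact permutation p = 1.0). The difference of -2.68 points turned to 1.86 without shNT animal 2. Of the NCM-fraction wells alone these shares were 33.7, 42.2, 40.1 and 42.3%, in which the loading of the chips also enters.

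Counting wells in which a gene had at least 1 UMI after thinning gives each well the same weight. Over all wells edgeR called 0 of 6676 genes (185 with an unadjusted p under 0.05, 2.77%). Within the NCM fraction it called 2 of 4787 genes (0.0418%), both lower in shJun, 173 reached an unadjusted p under 0.05 (3.61%), and 30.5% had animals that did not overlap. Both were processed pseudogenes, whose reads can be shared with a parent gene, so that their source is uncertain. Gm11512 (chr11:90538484-90539146, minus strand, GRCm38) was detected in 21 and 16 wells of the shJun animals (9.25 and 7.34%) and in 91 and 59 wells of the shNT animals (33.6 and 21.9%). Its log2 change in wells was -1.82 (SE 0.28; edgeR adjusted p = 0.0388). Gm11410 (chr4:80003989-80005131, plus strand) was detected in 24 and 28 wells of the shJun animals and in 96 and 77 of the shNT animals, at -1.55 (SE 0.26; edgeR adjusted p = 0.0411). In summed UMIs of all wells they gave -1.13 and -1.08, and neither passed there. The median mitochondrial share of the NCM-fraction wells, 28.4 and 23.6% in the shJun animals and 55.3 and 39.2% in the shNT animals, has the same order of hairpins without overlap, and its part in these calls was not tested.

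Further genes were taken per direction by the smallest unadjusted p among genes whose animals did not overlap, so their direction and separation are what chose them, and they did not pass. Those in more wells of the shNT animals were muscle genes and further Gm loci. Ckmt2, the mitochondrial creatine kinase of muscle, was in 11, 14, 71 and 22 wells in the order shJun animals 1 and 2, shNT animals 1 and 2. Tnni3, cardiac troponin I, was in 80, 75, 198 and 112 wells, and Bag3, a co-chaperone rich in muscle, in 7, 10, 35 and 20. Tnnc1, cardiac troponin C, was in 53, 77, 203 and 84. The Gm loci were Gm11407, Gm20594, Gm4076 and Gm12155. Gm11407 (chr4:80002331-80003388, plus strand) lies close to the called Gm11410 and was in 103, 99, 237 and 184 wells. The CM markers as a list had a median log2 change in summed UMIs of -1.59 in the NCM fraction and of -0.32 over all wells. In the NCM fraction 3 of 12 were lower at an unadjusted p under 0.05, against 2.7% of all genes. The median share of these markers per NCM-fraction well was 1.90% in shNT animal 1 and 0.351, 0.573 and 0.406% in shJun animals 1 and 2 and shNT animal 2.

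Among genes in more wells of the shJun animals, which did not pass either, Gmfg, an actin-regulating protein rich in leukocytes, was in 12, 20, 2 and 3 wells. These were 5.29, 9.17, 0.738 and 1.11% of the thinned NCM-fraction wells in the order shJun animals 1 and 2, shNT animals 1 and 2. The share of Gmfg was 3.11% in fibroblast wells and 20.7% in macrophage wells, and only the macrophage share lay above that of every animal. Cyp26b1, which degrades retinoic acid, was in 40 and 13 wells of the shJun animals and 12 and 2 of the shNT animals, and its level was 478, 53.5, 15.9 and 2.90 CPM in the same order (log2 change 4.82, SE 1.31). The lowest shJun and the highest shNT animal were separated by 1 well. Col15a1, a basement membrane collagen, was in 65 and 47 against 44 and 26 wells, while its summed UMIs in the NCM fraction gave 0.02 (SE 0.49). The remaining genes of this direction were mostly not protein-coding. They were the pseudogenes Rps19-ps5, Gm14932 and Gm13981, the non-coding Gm22519, Gm24146 and BC018473, and the protein-coding 2310039H08Rik.

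Whether the hairpin change in endothelial-marker wells differed from that in fibroblast or macrophage wells of the same animals was tested on 12 sums. Against fibroblast wells, edgeR called 0 of 17350 genes, and 421 had an unadjusted p under 0.05 (2.43%). Against macrophage wells it called 0, with 1036 under 0.05 (5.97%), and without a filter on low counts it called 26, the change of endothelial-marker wells being the higher in 18 and the lower in 8. For Jun, fibroblast wells gave a log2 change of 0.38 (SE 0.41) and macrophage wells -0.73 (SE 1.04), and the differences of the endothelial-marker wells from these were 0.06 (SE 1.11) and 0.72 (SE 1.20). Jun in the NCM fraction stood at 130, 289, 126 and 158 CPM in fibroblast wells and at 203, 128, 34.6 and 399 CPM in macrophage wells, in the order shJun animals 1 and 2, shNT animals 1 and 2, with overlap between hairpins in both classes.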

How the data were processed

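Single-cell RNA was counted on 6 ICELL8 chips. Per the study's methods and the submitters' processing notes, reads were trimmed with cutadapt, aligned to mm10 with STAR 2.5.2b, assigned to genes with featureCounts (Subread 1.4.6-p1) and then reduced to unique UMIs. What the authors deposited is a matrix of raw counts, the UMIs of each gene in each well without normalization, and well reports with the counts, hairpin and animal of each well. In 7542 of 7542 wells (60 of them control wells, left out) the matrix sum equalled the report. Of 33346 genes, 32555 had a symbol in GENCODE vM21 (GRCm38). The 35 mitochondrial genes, 87 spike-ins and the TDtomato column stayed out of sums and tests. No doublet caller was run, because wells had been imaged for 1 cell. The 1643 wells used 1432 barcodes, 192 of them on more than 1 chip. Median depth was 28477 UMIs per well (691 to 487289).

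UMIs were summed per animal and tested with edgeR 4.0.16 (glmQLFit, glmQLFTest, TMM, filterByExpr, Benjamini-Hochberg threshold 0.05) in R 4.3.3, with hairpin as the only term and 2 residual degrees of freedom. To these glmQLFit adds degrees of freedom by drawing each gene's variance estimate towards that of all genes. SEs come from the log2 change and F. CPM of tested sums are on the TMM scale. The Wilcoxon tests across cells of the study's methods were not repeated, since cells are not replicates. Thinning drew 3000 UMIs per well, leaving out shallower wells where wells with a UMI were counted (seed 20). Alternatives were DESeq2 1.42.0, no filter, stricter well rules, thinning, the animal number as a block and leaving out each animal. Values in the NCM fraction and counts of wells with a UMI were chosen after seeing the data. Wells, sums and figures were made with pandas 2.3.3, matplotlib 3.10.9, scipy 1.17.1 and numpy 2.4.6 under Python 3.11.15. The edgeR fit was run on simulated sums with known changes and the same dispersion for every gene. That check asked only whether the median estimated change lay near the true change. The simulated sums held no UMIs clumped in single wells and no differences between animals in sex or mitochondrial share, so the check does not cover these.

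The well rule and the gene lists were chosen with earlier results of these data known. Genes named outside the lists are the 10 per direction with the smallest unadjusted p among genes at a mean of 20 CPM or more whose animals did not overlap, leaving out the 18 marker genes, since none passed. The same rule, without the minimum level, was taken for well counts.

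Animals with the same number shared chips by the well reports, so the number marks a batch. Their deviations from the hairpin means correlated by 0.058 over genes in all wells and by 0.031 in the NCM fraction. On thinned sums these correlations were 0.124 and 0.093. For wells with a UMI they were larger, 0.268 and 0.149, and no block was fitted to those counts.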

Additional observations from a re-analysis of the deposited data

How the results depend on the processing

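The count of 0 genes called over all wells (edgeR) became 212 with DESeq2 and 335 without a filter on low counts. In the NCM fraction it was 267 with DESeq2, 2 by wells with a UMI and 0 with the other alternatives there. Genes with an unadjusted p under 0.05 numbered between 173 and 2356 over the alternatives. For animals that share chips, the replicate block called 0 genes over all wells (729 with an unadjusted p under 0.05) and 0 in the NCM fraction (552), gave Jun log2 changes of 0.49 and 0.59, and changed no other call. Without each animal in turn, 0 genes were called and Jun lay between 0.25 and 0.74. Jun reversed to -0.52 where wells with more CM than endothelial markers were left out, which took out 281 of the 329 wells of shNT animal 1. Against macrophage wells, 26 genes were called without a filter.

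Of 476 values of the 20 named genes over alternatives, 431 kept direction and side of the threshold, 37 passed it and 8 reversed. In the CM fraction alone, Trib1 reversed to -1.67, Selenon to -0.67, Brpf1 to -1.74 and Dnm3 to 1.22. With endothelial markers at 1% or more, Paqr4 reversed to -0.77, and to -0.78 in the NCM fraction. Rnf128 reversed to 0.80 without wells rich in CM markers and to 0.080 in the NCM fraction without shNT replicate 1.

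Differences in shares of wells, in percentage points, changed sign readily. The share of endothelial-marker wells gave 0.234 at 1% or more and 3.93 without wells rich in CM markers, and -7.22 to 1.86 without each animal. Arterial wells gave -0.150 in the NCM fraction (-1.25 to 1.41 without each animal), venous wells 0.437 with 3 markers needed (-6.26 to 1.51), endocardial wells 0.324 after thinning to 2000 UMIs and 1.27 without wells rich in CM markers (-3.51 to 1.71), and lymphatic wells -0.315 with 3 markers (-1.47 to 1.51). The cause of these changes was not tested. Among 269 list genes tested, 229 changed direction under some alternative, 25 of them between all wells and the NCM fraction. Depth, 2 animals per hairpin and UMIs that lie in few wells limit what could be detected.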

Other observations

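The TDtomato reporter, which marks CMs in this strain after tamoxifen, had 4 UMIs in 4 of the 1643 endothelial-marker wells and 0 in the 60 control wells. The rule for endothelial-marker wells was met by 1 of the 60 control wells, whose median depth was 961.5 UMIs. Globins took over 50% of the UMIs in 38 of 1111 NCM-fraction wells and in 0 of 532 CM-fraction wells. Over all wells, DESeq2 and edgeR without a filter shared 109 called genes, of 212 and 335. In 49 of the 212 genes DESeq2 called, 1 animal held over 90% of the UMIs.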
